A study of Mus musculus with 71 samples.

Results

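H3K27ac HiChIP loops were described at the promoters of 10 genes of the Wnt pathway. These were the ligands Wnt5a and Wnt11, the receptors Fzd1, Fzd2, Fzd7, Fzd8 and Fzd10, the feedback genes Axin2 and Nkd1, and the receptor Lgr5. A loop was taken for a gene when either of its anchors lay within 2 kb of a transcription start site (TSS) of that gene in the GENCODE annotation. By this rule 59 of the 24244 loops in the list, 0.243%, reached 1 of the genes, and 9 of the 10 genes had at least 1 loop. HiChIP captures pairs of chromatin fragments that lie close to each other in the nucleus and enriches them with an antibody, here against H3K27ac, the acetylation that marks active promoters and enhancers. The loops came from 2 hSS2 mouse SyS tumors. These are synovial sarcomas of the mouse hindlimb that express the human fusion oncogene SS18::SSX2, which was switched on by injection of TATCre protein at day 8 of life. Both tumors share that genotype and treatment, so the data hold no untreated tissue, no tumor of another genotype and no comparison between conditions.

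Wnt ligands are secreted glycoproteins that bind Frizzled receptors on the cell surface, together with co-receptors of the Lrp family. In the canonical branch this stabilizes β-catenin, which acts with Tcf/Lef factors on target genes. Axin2, Nkd1 and Lgr5 are among the well-known targets, and the Axin2 and Nkd1 proteins dampen the signal again, whereas Lgr5 strengthens it. Other ligands, of which Wnt5a and Wnt11 are the usual examples, act mostly without β-catenin on cell polarity and movement, which shapes the growing limb.

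Each loop was listed with a pair of anchors, its number of tags, which are the read pairs that connect them, and a false discovery rate (FDR). It held 41574 tags, and 78% of its loops rested on a single tag. It was made of a first part with 28657 tags and a second part with 12917 tags, which could not be assigned to the tumors. The tumors have no values of their own, so no test was made, and the intervals below cover counting error only. The list holds what passed the loop caller, and its shortest loop with 1 tag spanned 109 kb and its shortest with 2 tags 88.8 kb, so that contacts nearer than this are seen here at higher tag counts only. This floor differed between the parts. In the first part all 878 loops spanning 0.8 to 1.2 times 281.1 kb had at least 2 tags. The second part lists loops of 1 tag at such spans. In bulk tumor tissue, a contact present in fewer cells and a weaker contact in each cell cannot be told apart. Of the marker lists, 4 of 5 limb mesenchyme promoters and 3 of 5 synovial sarcoma promoters were looped. The loop score is the summed tags of all loops at a promoter. It was largest at Pdgfra (41 tags) and Sox2 (39 tags), whereas the medians of these lists were 5 and 2. None of 5 immune promoters, 1 of 4 skeletal muscle promoters and 2 each of 5 epithelial and 4 endothelial promoters were looped, none of them with a score over 3. The share over all protein-coding genes was 45.8%. Loops are not expression, and a promoter without a loop can still be transcribed.

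The sequences that bear on the Wnt genes are given first, from the GRCm38.p6 assembly. Tcf/Lef factors recognize the core CTTTGAT, which reads ATCAAAG on the opposite strand. Both strands were searched. The core overlaps GATC, the site of the MboI enzyme used in the HiChIP protocol, when a C follows CTTTGAT or a G precedes ATCAAAG. The Axin2 promoter anchors at chr11:108919964-108923087 held this core 4 times, and each occurrence is shown with the core in capitals, named by its distance downstream of the first Axin2 TSS. The first lies in a noncoding first exon and the other 3 in introns of the annotated transcripts. The third overlaps an MboI site. Counted in the same way, the whole promoter anchor of Fzd10 held the core 2 times and that of Wnt11 1 time. No share of the list was computed for whole anchors.
Axin2, 78 bases, chr11:108920416-108920444, plus strand: agccggctgcgCTTTGATaaggtcctggc
Axin2, 883 bases, chr11:108921221-108921249, plus strand: cggccggcgcgCTTTGATgtgcggggcgg
Axin2, 2067 bases, chr11:108922405-108922433, plus strand: aaagtttgaagATCAAAGcctctaagtta
Axin2, 2723 bases, chr11:108923061-108923087, plus strand: ttactttcttgCTTTGATgttgggtag

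The window of 2 kb on either side held 2 cores around the first of the 7 annotated Axin2 TSSs and 3 to 5 around 4 of them. Around the TSSs furthest downstream it held 1 and 0. Windows of nearby TSSs overlap and count the same cores again. Of the 54086 such windows at protein-coding TSSs, many of which overlap, 45.3% held at least 1. At least 2 were held by 12.9%, at least 3 by 2.84% and at least 4 by 0.549%. Around the first TSSs of the other genes the count was 3 for Nkd1, 2 for Lgr5 and 1 for Wnt11. It was 0 for Wnt5a and for each of the 5 Frizzled genes. Around further TSSs it reached 3 for Lgr5 and 1 for Wnt5a. A match of these letters is a description of the sequence and not a bound site. RefSeq promoters, which are 300 bases long and end just past the start, were at hand for 6 of the 10 genes and held the core in 1 of 7 entries, against 3.73% of all 32851 entries. That entry is the first promoter of Wnt11, shown whole with the core in capitals. The base before the core is a G, so this match overlaps an MboI site.
Wnt11 promoter, chr7:98834862-98835161, plus strand: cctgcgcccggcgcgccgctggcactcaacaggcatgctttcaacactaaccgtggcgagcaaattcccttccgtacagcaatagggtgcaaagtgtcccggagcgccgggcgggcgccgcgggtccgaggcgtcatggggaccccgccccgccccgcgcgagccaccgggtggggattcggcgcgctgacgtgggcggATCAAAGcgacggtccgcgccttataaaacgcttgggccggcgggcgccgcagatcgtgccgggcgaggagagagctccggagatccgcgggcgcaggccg

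Some loops of Fzd1 join its promoter to anchors far from every TSS, and the same length of the promoter and of the far anchors with the most tags is shown with every CpG in capitals. The promoter, as placed by RefSeq, held 16 CpG, compared with a median of 7 over all RefSeq promoters. The central 300 bases of the far anchor with the most tags held 11, and those of the next far anchor held 1.
Fzd1 promoter, chr5:4758167-4758466, minus strand: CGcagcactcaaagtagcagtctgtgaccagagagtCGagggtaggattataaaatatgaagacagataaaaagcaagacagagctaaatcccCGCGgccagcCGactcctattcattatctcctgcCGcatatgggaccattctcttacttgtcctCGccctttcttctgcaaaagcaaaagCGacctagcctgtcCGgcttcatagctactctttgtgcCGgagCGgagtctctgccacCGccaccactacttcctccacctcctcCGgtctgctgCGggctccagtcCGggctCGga
Fzd1 far anchor of 7 tags, chr5:4496435-4496734, plus strand: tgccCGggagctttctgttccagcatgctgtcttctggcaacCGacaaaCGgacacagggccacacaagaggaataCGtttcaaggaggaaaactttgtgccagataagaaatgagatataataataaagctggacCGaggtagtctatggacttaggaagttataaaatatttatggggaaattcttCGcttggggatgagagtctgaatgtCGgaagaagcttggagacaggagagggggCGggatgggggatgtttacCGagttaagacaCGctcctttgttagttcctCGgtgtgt
Fzd1 far anchor of 6 tags, chr5:4528396-4528695, plus strand: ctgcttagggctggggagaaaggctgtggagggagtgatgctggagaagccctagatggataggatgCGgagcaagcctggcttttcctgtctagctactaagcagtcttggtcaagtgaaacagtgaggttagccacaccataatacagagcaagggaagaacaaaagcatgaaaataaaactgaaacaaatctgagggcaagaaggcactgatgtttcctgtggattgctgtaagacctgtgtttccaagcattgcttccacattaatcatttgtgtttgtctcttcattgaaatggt
The first of these far anchors also held the Tcf/Lef core at 2 places outside its centre, shown here in capitals. Neither overlaps an MboI site. This anchor is 7.56 kb wide, and the 1500 bases around its midpoint held 0 cores. Whole anchors have no share of the list to compare with, so nothing is read from the 2 matches.
Fzd1 far anchor, chr5:4498269-4498335, plus strand: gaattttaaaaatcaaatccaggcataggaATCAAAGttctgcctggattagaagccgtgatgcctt
Fzd1 far anchor, chr5:4498940-4499006, plus strand: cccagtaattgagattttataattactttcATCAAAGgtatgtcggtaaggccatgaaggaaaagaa

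The loops were spread very unevenly over the genes. Together they carried 115 tags, of which Fzd2 took 44 and Fzd1 took 42, so that these receptors held 74.8% of the tags and 36 of the 59 loops. Fzd7 had a loop score of 9. Fzd10 had 7, Axin2 6, Wnt11 3, Wnt5a 2, and Fzd8 and Lgr5 1 each. Nkd1 had no loop. The gap between Fzd1, at 42, and the next gene, at 9, was wide, whereas scores of 1 to 3 differ by single tags and their order carries no weight. With 9 of 10 genes looped the list compares with 45.8% of 21951 protein-coding genes and 23.9% of all 55450 GENCODE genes. The genes were chosen with these loops known, so nothing is read from that difference.

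**Figure D1:**
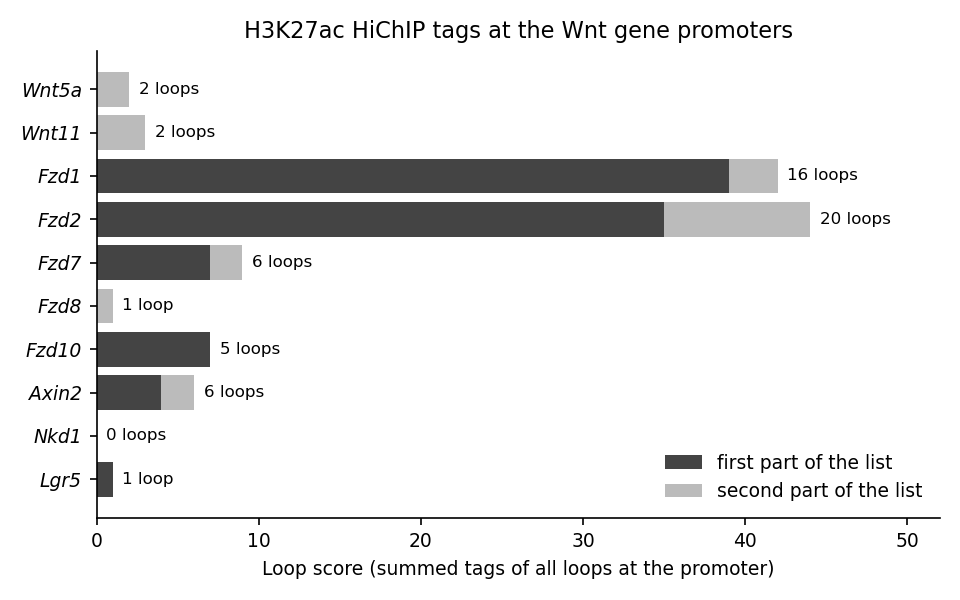
Loop score of each gene in tags, as bars that start at 0, split by the part of the list the tags came from, with the number of loops beside each bar. Fzd1 and Fzd2 reach 42 and 44 tags, and no other gene passes 9.

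The median loop score was 4.5 over the 10 genes and 6 over the 9 with a loop, beside 4 over all looped genes and 0 over all protein-coding genes. The scores of Fzd2 and Fzd1 lay above those of 98.6% and 98.5% of protein-coding genes. Those of Fzd7, Fzd10 and Axin2 lay above 87.8%, 84.4% and 82% of them. For Wnt11 the share was 70.3%, for Wnt5a 63.6% and for Fzd8 and Lgr5 54.2%, which is the share of protein-coding genes with no loop. A loop of at least 4 tags was found at 2 of the 10 genes, Fzd1 and Fzd2, beside 8.51% of protein-coding genes. Both parts held loops of 4 of them, Fzd1, Fzd2, Fzd7 and Axin2, beside 24.3% of protein-coding genes. Wnt5a, Wnt11 and Fzd8 were looped in the second part only, and Fzd10 and Lgr5 in the first part only, each on 1 to 7 tags. As the floor for single tags differed between the parts, absence from 1 part need not mean absence of contact. Of the 115 tags, 93 came from the first part (80.9%, Wilson 95% interval 72.7 to 87), which held 68.9% of the tags of the list. The interval treats tags as independent draws, which tags of 1 loop are not, and Fzd1 alone gave 39 of the 93.

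Single loops at the Wnt genes had tags and spans much like those of the list. Of the 59 loops, 42 had 1 tag (71.2%, 58.6 to 81.2, beside 78% of the list), 9 had 2, 3 had 3 and 5 had at least 4. The span, measured between anchor midpoints, had a median of 554 kb with quartiles of 304 and 994 kb, beside a median of 500 kb in the list. Spans above 1 Mb made up 23.7% of the loops at the Wnt genes and 21.5% of the list. Spans under 100 kb were found for 2 loops, both at Fzd2. No loop joined any of the 10 genes to another.

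**Figure D2:**
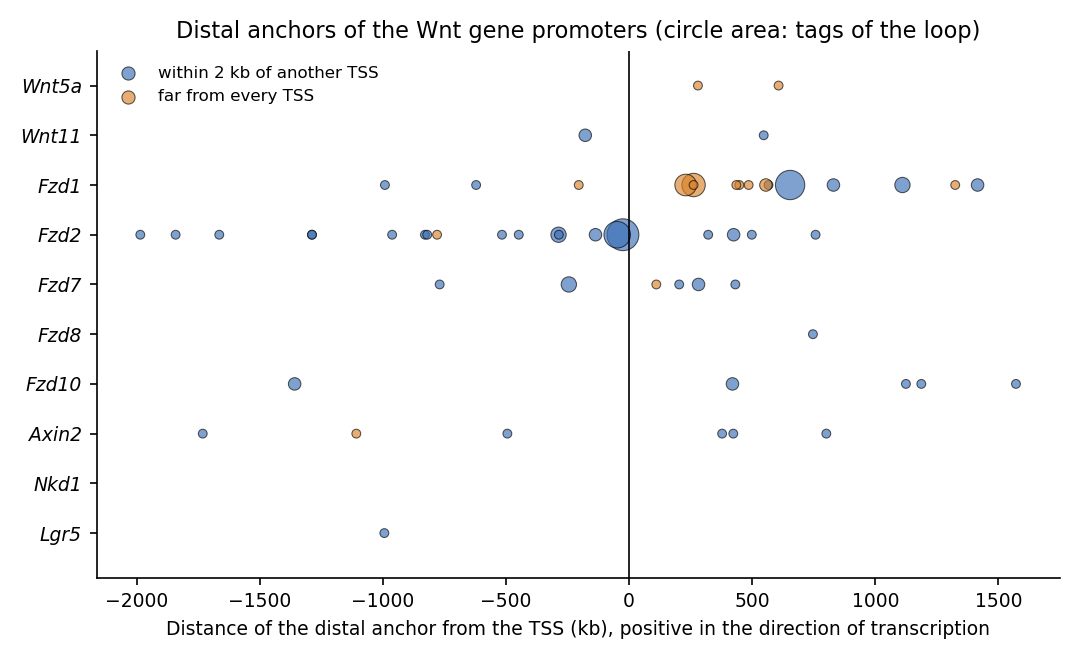
Distance in kb from each gene's TSS to the distal anchor of each of its loops, positive in the direction of transcription. Circle area gives the tags of the loop and colour tells anchors within 2 kb of another gene's TSS from anchors far from every TSS. The far anchors gather at Fzd1, downstream of the gene, and the largest circles belong to Fzd1 and Fzd2.

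The ligands were weakly looped. Wnt5a, at chr14:28504750-28527448 on the plus strand, had 2 loops of 1 tag each, which spanned 279.6 and 605.7 kb in the direction of transcription. Both distal anchors were far from every TSS, at 7.7 and 11.1 kb from the nearest, that of Gm35217 and that of Cacna2d3, a calcium channel subunit in whose gene body the second lay. These loops left from different promoter anchors, 1 of which also covered a TSS of the noncoding gene Gm2670. Wnt11, at chr7:98835112-98855195 on the plus strand, had 2 loops and both reached promoters. Its loop to Emsy, a transcriptional regulator, had 2 tags over 178.9 kb with an FDR of 0.00148. The other reached Gdpd5, a phosphodiesterase, with 1 tag over 545.9 kb. With all 5 tags in the second part of the list, the ligands show no contact that was seen in both parts. The first part lists no loop of 1 tag with a span like the 279.6 kb of Wnt5a. The absence of that contact from the first part therefore carries no weight.

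Fzd1 had the strongest long-range loops of the group. The gene, at chr5:4753839-4758035 on the minus strand, belongs with Fzd2 and Fzd7 to a subgroup of closely related Frizzled receptors. Its 16 loops held 42 tags, 39 in the first part and 3 in the second. The loop with the most tags, 11, ran 652.5 kb to the promoter of Cyp51, an enzyme of cholesterol synthesis, with an FDR that the list gives as 0. It was listed in the first part only and passed over 1 protein-coding gene, Mterf1b. Among the 10095 loops of the list that span over 600 kb, 3 had at least 11 tags, and this was 1 of them. Of the 2927 loops in the same part with a span between 0.8 and 1.2 times as long, 2 had as many tags, itself included.

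The next loops of Fzd1 reached into the interval downstream of the gene in which no TSS is annotated. An anchor at chr5:4492805-4500363 was joined to the promoter by 7 tags over 260.4 kb with an FDR of 3.95e-11 in the first part, and by 1 tag in the second part. An anchor at chr5:4527678-4529413 was joined by 6 tags over 228.4 kb with an FDR of 2.88e-08, in the first part only. For both, the nearest TSS of any gene was that of Fzd1 itself, at 258 and 229 kb. Only 24 of the 3885 far anchors of the list, 0.618%, had no TSS within 200 kb, and the median distance of far anchors from a TSS was 12.9 kb. The first of these anchors was 7.56 kb wide, a width that 0.237% of all anchors reached. Among loops of the first part with a like span, 2.42% had as many tags as the 7-tag loop and 4.86% as many as the 6-tag loop.

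These far anchors were picked as the far partners of Fzd1 with the most tags. That Fzd1 leads their promoter partners therefore carries no weight. The 7.56 kb anchor had 10 loops with 18 tags, of which 8 went to Fzd1, 1 each to Cdk14, Cyp51 and Mterf1a, and 7 to anchors far from every TSS. The other had 8 loops with 16 tags, of which 6 went to Fzd1 and 2 to Cyp51, and 4 to far anchors. Its 4 other promoter partners had 1 tag each. The distal anchors of Fzd1 were also joined among themselves by 13 loops of 1 to 3 tags, among them the loop between the Cyp51 promoter and the 6-tag far anchor with 2 tags over 424.1 kb. In this way the Fzd1 promoter, the Cyp51 promoter and the far anchor were joined pairwise. Loops of pairs in merged bulk tumors do not show that all of them met in the same cell. Distal anchors of Fzd2, Fzd7 and Fzd10 were also joined among themselves.

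The remaining loops of Fzd1 had 1 to 3 tags. Anchors at Gatad1 and Tmbim7 (3 tags, 1108.8 kb), Cdk6 (2 tags, 1414.0 kb), a kinase of the cell cycle, and Akap9 (2 tags, 828.5 kb) lay beyond Cyp51 on the same side. Of the 16 loops 13 ran downstream and 3 upstream. Within 500 kb of Fzd1 the annotation holds 1 other protein-coding gene, and the median number of protein-coding genes that its loops passed over was 0.

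**Figure D3:**
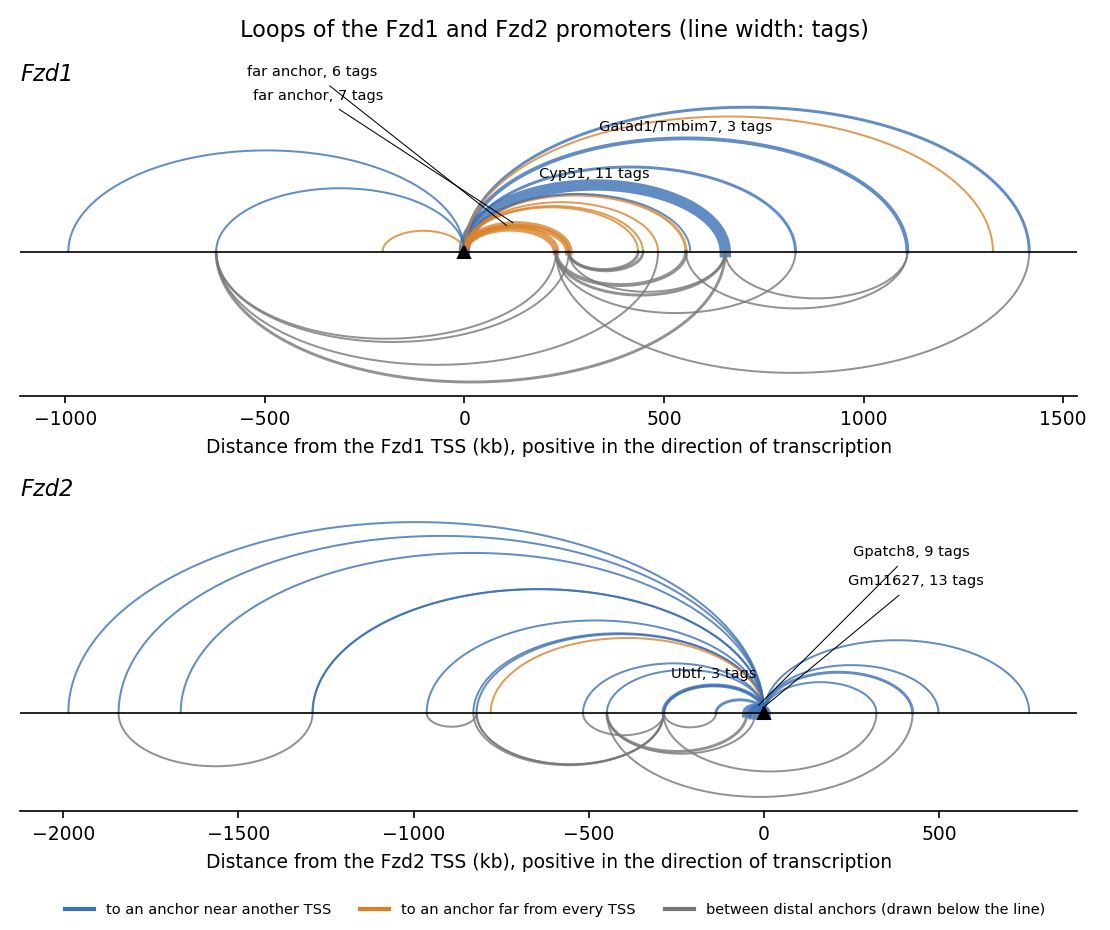
Loops of the Fzd1 and Fzd2 promoters drawn as arcs along the distance from the TSS in kb, with line width giving the tags and colour the class of the distal anchor. Loops between the distal anchors are drawn below the line. Arc height follows the span and has no unit. The thick arcs of Fzd1 end at Cyp51 and at the far anchors 228.4 and 260.4 kb away, whereas those of Fzd2 end within 50 kb of the gene.

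Fzd2 carried nearly the same loop score in a gene-dense region. With an FDR under 0.001 the scores were 16 for Fzd2 and 31 for Fzd1. The gene, at chr11:102604396-102608058 on the plus strand, had 20 loops with 44 tags, 35 in the first part and 9 in the second. Its strongest loops were short. The loop to the predicted gene Gm11627 had 13 tags over 26.2 kb with an FDR of 0.000475, and the loop to Gpatch8, a G-patch domain protein, had 9 tags over 49.6 kb with an FDR of 0.0195. Over such spans high tag counts are common. The 919 loops of the list that span under 50 kb had a median of 9 tags, and 34.6% and 60.2% of the loops in the first part with a like span had as many tags as these.

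Of the 18 loops of Fzd2 over 100 kb, 14 ran upstream, and all but 1 reached an anchor near another TSS. Ubtf, a transcription factor of ribosomal RNA genes, was joined by 3 tags over 287.9 kb in the first part and by 1 tag in the second part, and its promoter had a loop score of 93. Psme3, a subunit of a proteasome activator with a loop score of 48, was joined by the same pair of anchors in both parts, with 1 tag in each over 1289.4 kb. Itga2b, an integrin subunit, and the anchor shared by Dcakd and Nmt1 had 2 tags each. The other loops had 1 tag, and the transcription factors Stat3 and Etv4 were among the partners. In all, 18 of 19 distal anchors of Fzd2 lay near another TSS, with the overlapping Ubtf anchors of both parts counted separately. Within 500 kb of Fzd2 there are 34 other protein-coding genes, and within 2 Mb the list holds 151 anchors, beside 1 gene and 42 anchors for Fzd1. The loops of Fzd2 passed over a median of 20.5 protein-coding genes.

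Fzd1 and Fzd2 differed in where their loops ended. Of the distal anchors of Fzd1, 8 of 15 were far from every TSS (53.3%, 30.1 to 75.2), and its tags were divided evenly, with 21 to far anchors and 21 to anchors near a TSS. For Fzd2 it was 1 of 19 (5.26%, 0.935 to 24.6). Of all anchors of the list 77% were near a TSS. Apart from anchors of 8, 6 and 2 tags, each far anchor of Fzd1 rested on 1 tag, as did that of Fzd2. The Wilson intervals do not overlap. They treat anchors as independent draws, which neighbouring anchors of 1 promoter are not, and the number of annotated genes around each promoter moves with the difference, so its part in the result was not tested.

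The other Frizzled genes had fewer and weaker loops. Fzd7, at chr1:59482424-59486955 on the plus strand, had 6 loops with 9 tags, 7 in the first part and 2 in the second. It was joined to Bmpr2, a receptor for bone morphogenetic proteins, by 2 tags over 281.1 kb (FDR 0.00879), and 4 of its loops had 1 tag each. Fzd10, at chr5:128600844-128604093 on the plus strand, encodes a receptor that has been pursued as an antibody target in synovial sarcoma. It had 5 loops with 7 tags, all in the first part. Those to Tmem132c, a membrane protein gene, over 1358.2 kb and to Ran, the GTPase of nuclear transport, over 420.1 kb had 2 tags each, with FDRs of 0.000474 and 0.00219. The Fzd10 promoter anchor also covered TSSs of the noncoding genes 5930412G12Rik and Gm42498, so its tags cannot be divided between them. Fzd8, on chromosome 18 at 9212163 to 9218136, had a single loop of 1 tag, to Thoc1, an mRNA export factor, over 744.5 kb. Fzd7 and Fzd10 differed by 2 tags and cannot be ranked at this depth.

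Among the feedback genes, Axin2 was looped and Nkd1 was not. Axin2, at chr11:108920349-108950783 on the plus strand, encodes a scaffold of the complex that degrades β-catenin. It had 6 loops of 1 tag each, 4 in the first part and 2 in the second, over 376.3 to 1733.0 kb, and 5 of its 6 distal anchors were near another TSS. None of these loops had a second tag in either part. The Axin2 loops left from the anchors whose Tcf/Lef cores are printed above. Nkd1, at chr8:88521354-88594884 on the plus strand, encodes a protein that binds Dishevelled. No anchor of any loop overlapped its gene body, and the nearest anchor lay 42.8 kb from a Nkd1 TSS. The surroundings of Nkd1 were not empty of loops, with 51 anchors within 2 Mb, beside 52 for Axin2. A count of 0 here says that no loop of Nkd1 passed the caller, and contacts below its threshold would not be listed. Lgr5, at chr10:115450311-115587780 on the minus strand, encodes a receptor for R-spondins and is a marker of intestinal stem cells. It had 1 loop of 1 tag over 995.1 kb, to Cnot2 of the Ccr4-Not complex, from the anchor over its upstream TSSs. It also had the fewest anchors within 2 Mb, 14, against 19 for Fzd8 and 151 for Fzd2.

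**Figure D4:**
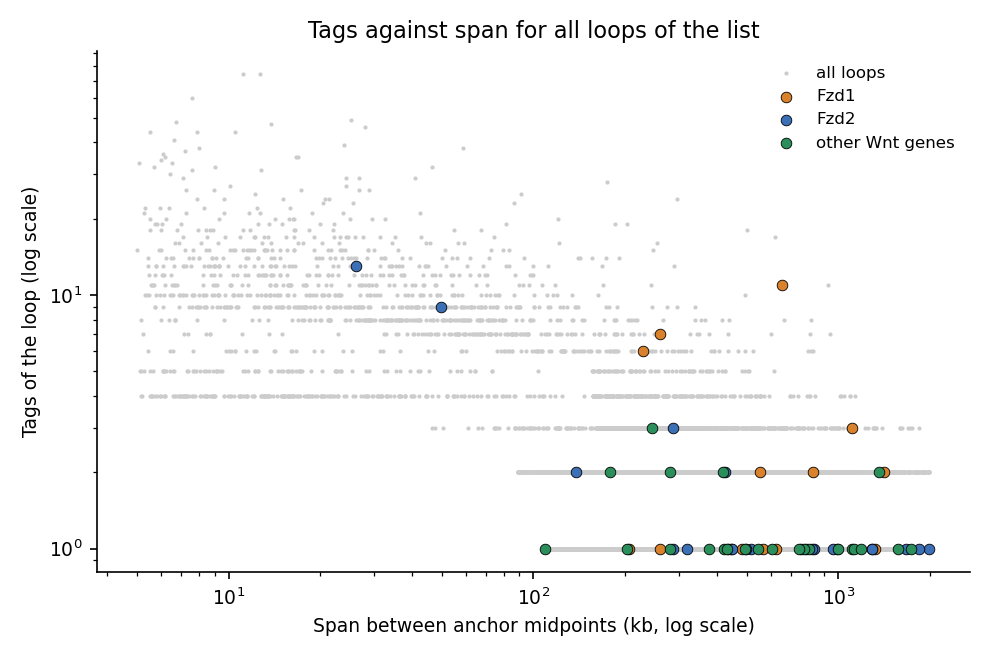
Tags against span of all loops of the list in grey, both axes on a log scale, with the loops of Fzd1, Fzd2 and the other Wnt genes in colour. The Fzd2 loops of 13 and 9 tags sit among many short loops with as many tags, and the Fzd1 loop of 11 tags sits above nearly all loops of its span.

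Over all 10 genes, distal anchors lay near other promoters about as often as anchors in general. Of 57 distal anchors with different coordinates, 44 lay within 2 kb of a TSS that belongs to another gene (77.2%, 64.8 to 86.2), and 77% of all anchors of the list were near a TSS. The overlapping Ubtf anchors of both parts count separately here. Of the 44, 42 were near a protein-coding TSS. Without Fzd1 it was 37 of 42 (88.1%, 75 to 94.8). Of the 13 far anchors, 8 belonged to Fzd1, 2 to Wnt5a and 1 each to Fzd2, Fzd7 and Axin2, and 5 lay in the body of a gene. The median number of protein-coding genes passed over by a loop was 4, and 12 of the 59 loops passed over none. Of the 45 loops to anchors near a TSS, 14 reached a promoter with a higher loop score than the Wnt gene they came from.

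The Tcf/Lef core was counted in equal windows of 1500 bases around the midpoint of every anchor with sequence. It was present in 3 of 13 promoter anchors of the Wnt genes (23.1%, 8.18 to 50.3), 8 of 44 distal anchors near a TSS (18.2%, 9.51 to 32) and 3 of 13 far anchors (23.1%, 8.18 to 50.3). Of the 3 promoter anchors, 2 overlap each other at Axin2 and 1 is at Wnt11, and the anchors of Fzd1 and Fzd7 also overlap in pairs, so the 13 are not independent. In the whole list it was present in 15.1% of anchors, 13.4% of those near a TSS and 20.7% of far anchors. All these shares of the list lie inside the intervals of the Wnt genes, so that no difference was detectable with so few anchors. The promoter anchors of the Wnt genes had a median GC content of 65.4%, against 55.9% in their distal anchors near a TSS and 45% in their far anchors. In the list the medians were 56.5% near a TSS and 47.6% in far anchors. The median of 3 MboI sites in the window was the same in all 3 classes of anchors at the Wnt genes.

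The wider pathway gave the setting for these genes. Of 77 genes in 7 Wnt lists, 44 were looped (57.1%), and of the 67 that are not among the 10 it was 35 (52.2%, 40.5 to 63.7), beside 45.8% of protein-coding genes. All 12 genes of signal transduction were looped, with a median loop score of 7 and a highest score of 18, at Gsk3b, a kinase that marks β-catenin for degradation. All 6 co-receptors and other receptors were looped, with a median of 2 and a highest score of 30, at Ptk7, a receptor of the planar polarity branch. By contrast 15 of 19 ligands had no loop, and the highest score among ligands was the 3 of Wnt11. Of the Frizzled genes 8 of 10 were looped with a median of 1.5. Fzd4, Fzd5 and Fzd9 scored 1, 2 and 1, and Fzd3 and Fzd6 had no loop. Of 21 feedback genes and inhibitors 10 were looped, with a median of 0 and the highest score, 12, at Znrf3, a ubiquitin ligase that removes Frizzled receptors. Of 7 Lgr receptors and R-spondins 3 were looped, none with a score over 2, and of 2 genes of Wnt secretion 1 was. Dvl3, Axin1 and Gsk3a, which act inside the cell, scored 10 each, and another gene of signal transduction that is not named here scored 12. Only Fzd2 and Fzd1 exceeded the score of Ptk7 among all 77 genes.

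**Figure D5:**
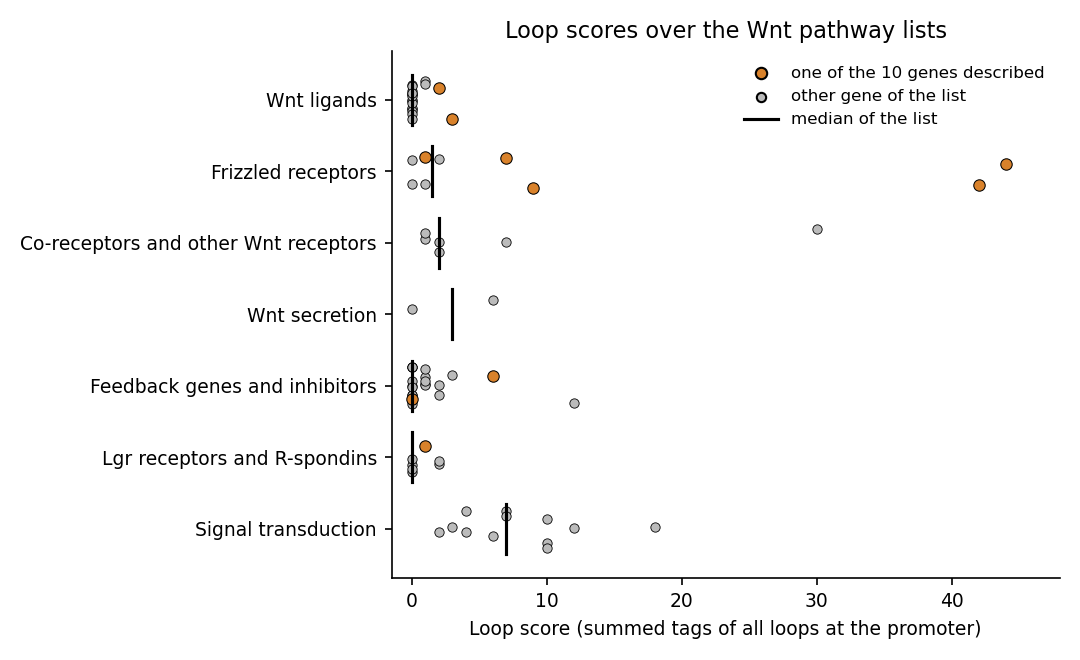
Loop score in tags of each gene in the 7 Wnt pathway lists, with the 10 genes described here in orange, the other genes in grey and the median of each list as a black line. Points are spread vertically within a list for legibility. Most ligands are at 0, signal transduction genes centre on 7, and Fzd1 and Fzd2 stand at 42 and 44.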

How the data were processed

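H3K27ac HiChIP of 2 hSS2 tumors was analysed. The authors aligned the reads to mm10 (HiC-Pro), called loops and merged the tumors. For the loop calls the methods name hichipper with an FDR below 0.05. A supplementary legend names Mango with an FDR below 0.01. The deposited values reach 0.05, and 84.8% of loops are at 0.01 or above. The deposited file gives, per loop, a count of paired-end tags, not normalized, and an FDR, a p-value that the authors' caller adjusted for multiple testing. How the tumors were merged is not given in the sources used here. The list runs through the genome a first and then a second time, and these parts were used together and never assigned to a tumor. The ChIP-seq samples are not analysed here.

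Every transcript of GENCODE vM21 (GRCm38) gave a TSS. Anchors were assigned within 2 kb, as in the study. Far anchors had no TSS within this distance. Loop scores are summed tags, spans run between anchor midpoints, and Wilson 95% intervals were computed for shares. The merged list has no replicates, so no test was run. The depth was 41574 tags over 24244 loops, which limits every value at 1 to 3 tags. No paired analysis, block or fold change was possible.

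The genes, pathway lists and marker lists were chosen with earlier results of these data known. The text names all 10 genes and the partners of each gene's 2 loops with the most tags or of anchors seen in both parts. It also names the pathway genes with the highest scores outside the 10. Of the genes that this rule names, 2 are not reported here. Gatad1, Tmbim7, Cdk6, Akap9, Mterf1b, Itga2b, Dcakd, Nmt1, Stat3, Etv4, Fzd3, Fzd4, Fzd5, Fzd6, Fzd9 and the partners of the Fzd1 far anchors were named after their values were seen. Sequence came from the RefSeq copy of GRCm38.p6, in which 3 anchors hold no bases. Promoters of Wnt5a, Fzd2, Fzd8 and Lgr5 were not at hand. Alternatives were promoter windows of 1 and 5 kb, protein-coding or RefSeq TSSs, an FDR under 0.01 or 0.001, at least 2 or 4 tags, spans up to 1 Mb, each part alone, repeated loops counted once, distal anchors resized to 4 kb and loops in place of tags. The assignment was tested on simulated data, where all 300 planted loops were recovered. Python 3.11.15, numpy 2.4.6, pandas 2.3.3, pyfaidx 0.9.0.4 and matplotlib 3.10.9 were used.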

Additional observations from a re-analysis of the deposited data

How the results depend on the processing

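Other promoter windows (1 or 5 kb) and other TSS sets (RefSeq, or protein-coding transcripts only) left all 10 loop scores as they were, with 9 genes looped and 115 tags. Filters on the loops changed the counts. Looped genes fell from 9 to 5 with an FDR under 0.01 and with at least 2 tags, to 4 with an FDR under 0.001 and to 2 with at least 4 tags. The summed tags were then 64, 73, 52 and 46. In the second part of the list alone they were 22, and with loops counted in place of tags the sum was 59. Of all protein-coding genes, 8.51% had a loop of at least 4 tags. Their shares under the other filters on FDR and tags were not computed. As 78% of the loops of the list have 1 tag, nothing particular to these genes is read from the falls. The share of distal anchors near another TSS was 60% with at least 4 tags, over 5 anchors, and 65% to 82.4% under the other alternatives. Fzd1 and Fzd2 together kept 54.5% to 100% of the tags under every alternative, lowest in the second part alone, where Fzd1 had 3 tags and Fzd2 had 9. Under all others Fzd1 had 24 to 42 tags and Fzd2 16 to 44, with 20 for Fzd2 at an FDR under 0.01, 16 at an FDR under 0.001, 29 with at least 2 tags and 22 with at least 4. No paired analysis was possible because the result comes from 1 merged list with no test. Loops of 1 tag are the limit of the depth. Axin2, Wnt5a, Fzd8 and Lgr5 had no loop of at least 2 tags, so their loops are single read pairs.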
